A study of Mus musculus with 15 samples.

Results

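The genes described here were Fos, Fosb, Fosl1, Fosl2, Jun, Junb, Jund, Egr1, Egr2 and Atf3, 10 of the 26301 gene numbers in each count file. They were chosen by symbol as the AP-1 and EGR transcription factors of the immediate early response. When the list was drawn up it was already known that Fos was among the largest increases in JMJD1A(H1122A) against LacZ, so that contrast is described below with no test. Of the 10 genes, 9 had counts high enough for the fits, and Atf3, with 3 to 11 counts in every library, did not.

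The libraries came from 3T3-L1, a mouse embryonic fibroblast line that becomes adipocytes when given a hormone cocktail, and were made from polyA RNA on day 2 of a cocktail of IBMX (115 ug/mL), dexamethasone (1 uM) and insulin (1.67 uM). Control (sh-Empty) cells carried a retrovirus with no hairpin, and JMJD1A-KD (sh-Jmjd1a) cells carried a hairpin against Jmjd1a, the older name of Kdm3a. The other 3 groups were JMJD1A-KD cells that also carried a pMXs retrovirus for LacZ, for hairpin-resistant wild-type JMJD1A, or for JMJD1A(H1122A), in which the site that holds the catalytic iron is lost, so all 9 of these libraries share the knockdown. Each of the 5 groups had 3 libraries, the lines were made by infection and antibiotic selection, and no source says whether replicates were separate infections or cultures. The p-values therefore measure only the spread between these libraries, which may be technical.

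AP-1 is a dimer of a FOS and a JUN protein, or of 2 JUN proteins, joined by their leucine zippers, and the EGR proteins are zinc finger factors that bind GC-rich sites. Many of their genes are known as immediate early genes because serum, growth factors and cAMP raise them without new protein synthesis, through SRF with its ternary complex partners and through CREB. In 3T3-L1 cells the cocktail, whose IBMX raises cAMP by blocking phosphodiesterases, is known to induce Fos and Egr2 early and briefly, and EGR2 (KROX20) is known as a promoter and EGR1 as a brake of adipogenesis.

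RefSeq promoter windows were found for 8 of the 10 genes, and not for Fosl1 and Egr1. The 250 bases before the RefSeq start are shown for 4 of them, for Fos as the factor with the largest rise on knockdown, for Junb and Jun as JUN partners that rose with it, and for Egr2 as the one fitted gene that did not pass the test there. The windows come from the GRCm38.p6 RefSeq table and each matched the NCBIM37 (mm9) genome exactly once on its chromosome, and they read 5′ to 3′ on the strand of the gene. Capitals mark matches to the motifs named below.
Fos (chr12:86814590-86814839, plus strand): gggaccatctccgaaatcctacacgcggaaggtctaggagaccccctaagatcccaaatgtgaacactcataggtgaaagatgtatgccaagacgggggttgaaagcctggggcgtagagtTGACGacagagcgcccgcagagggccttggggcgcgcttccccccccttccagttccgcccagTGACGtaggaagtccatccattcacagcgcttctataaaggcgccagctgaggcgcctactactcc
Junb (chr8:87502648-87502897, minus strand): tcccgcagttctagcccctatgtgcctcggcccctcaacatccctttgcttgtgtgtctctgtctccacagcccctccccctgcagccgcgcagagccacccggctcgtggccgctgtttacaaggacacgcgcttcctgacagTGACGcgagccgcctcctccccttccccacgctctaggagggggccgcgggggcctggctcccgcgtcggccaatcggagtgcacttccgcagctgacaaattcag
Jun (chr4:94718914-94719163, minus strand): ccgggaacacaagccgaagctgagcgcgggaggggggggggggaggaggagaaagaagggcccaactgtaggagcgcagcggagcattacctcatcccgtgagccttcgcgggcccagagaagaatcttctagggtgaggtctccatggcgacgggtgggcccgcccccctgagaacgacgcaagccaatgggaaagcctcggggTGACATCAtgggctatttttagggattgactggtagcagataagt
Egr2 (chr10:67000064-67000313, plus strand, 1 of 5 listed starts): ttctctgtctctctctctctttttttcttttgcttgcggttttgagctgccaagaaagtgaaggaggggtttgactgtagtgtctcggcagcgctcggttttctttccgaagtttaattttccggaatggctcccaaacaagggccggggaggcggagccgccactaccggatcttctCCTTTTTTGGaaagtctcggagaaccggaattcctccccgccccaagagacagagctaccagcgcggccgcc

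The CRE half-site TGACG, to which CREB family proteins bind, stood at bases -129 to -125 and -66 to -62 of the Fos window, counted back from the start, and at bases -106 to -102 of the Junb window. On either strand it was present in 7 of the 12 windows of these genes, among those of Atf3, Egr2, Fos, Fosb and Junb, and in 17.8% of all 32851 windows of the same length. The 12 windows belong to 8 genes and 5 of them are starts of Egr2, so windows of the same gene are not separate observations. The full site TGACGTCA, which contains the half-site, was in none of the 12 and in 1.55% of all windows, and the AP-1 site TGACTCA was in none of the 12 and in 4.46%. The 8-base AP-1 variant TGACATCA, known from the Jun promoter itself and searched for after that window had been read, stood at bases -45 to -38 of Jun and in 2.93% of all windows. A CArG box, the SRF site, was found at bases -72 to -63 of the Egr2 window shown, in 4 of its 5 windows and in 1.47% of all windows. That Egr2 window was picked for display because it was the first listed that holds this box. The EGR site GCGNGGGCG was in the windows of Fosb and Fosl2 and in 4.70% of all windows. These are matches of letters and were not tested as binding sites. Only the 250 bases before each start were searched, and Fosl1 and Egr1 had no window. A motif not found here, such as a CArG box in the Fos window, may therefore lie outside the bases searched.

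Total counts ran from 11437058 to 25523148 with a median of 12916162, and JMJD1A(WT) replicate 3 was by far the deepest, since the next library had 15561207. Kdm3a itself was at 174 ± 7.35 CPM (counts scaled to library size, mean ± SD, n = 3) in control cells, 131 ± 5.73 in JMJD1A-KD cells and 119 ± 2.66 with LacZ, and its row rose to 1696 ± 69.0 with JMJD1A(WT) and 2212 ± 90.1 with JMJD1A(H1122A). The mutant was thus measured at a higher transcript level than the wild type, with a log2 fold change (log2FC) of 0.38 ± 0.03 (SE, edgeR adjusted p = 3.94e-12). None of the 8 adipocyte and 8 fibroblast markers was at 0 in a whole group, and the summed level of 5 leukocyte markers was at most 4.0 CPM, that of 4 endothelial markers at most 0.853 CPM and that of 4 epithelial markers at most 0.369 CPM. Of 4 muscle markers, Myod1, Myog and Ckm were at 0 in all libraries, and the sum, all of it Des, was 14.2 to 16.6 CPM with JMJD1A(WT) and 2.17 to 5.11 CPM elsewhere.

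**Figure D1:**
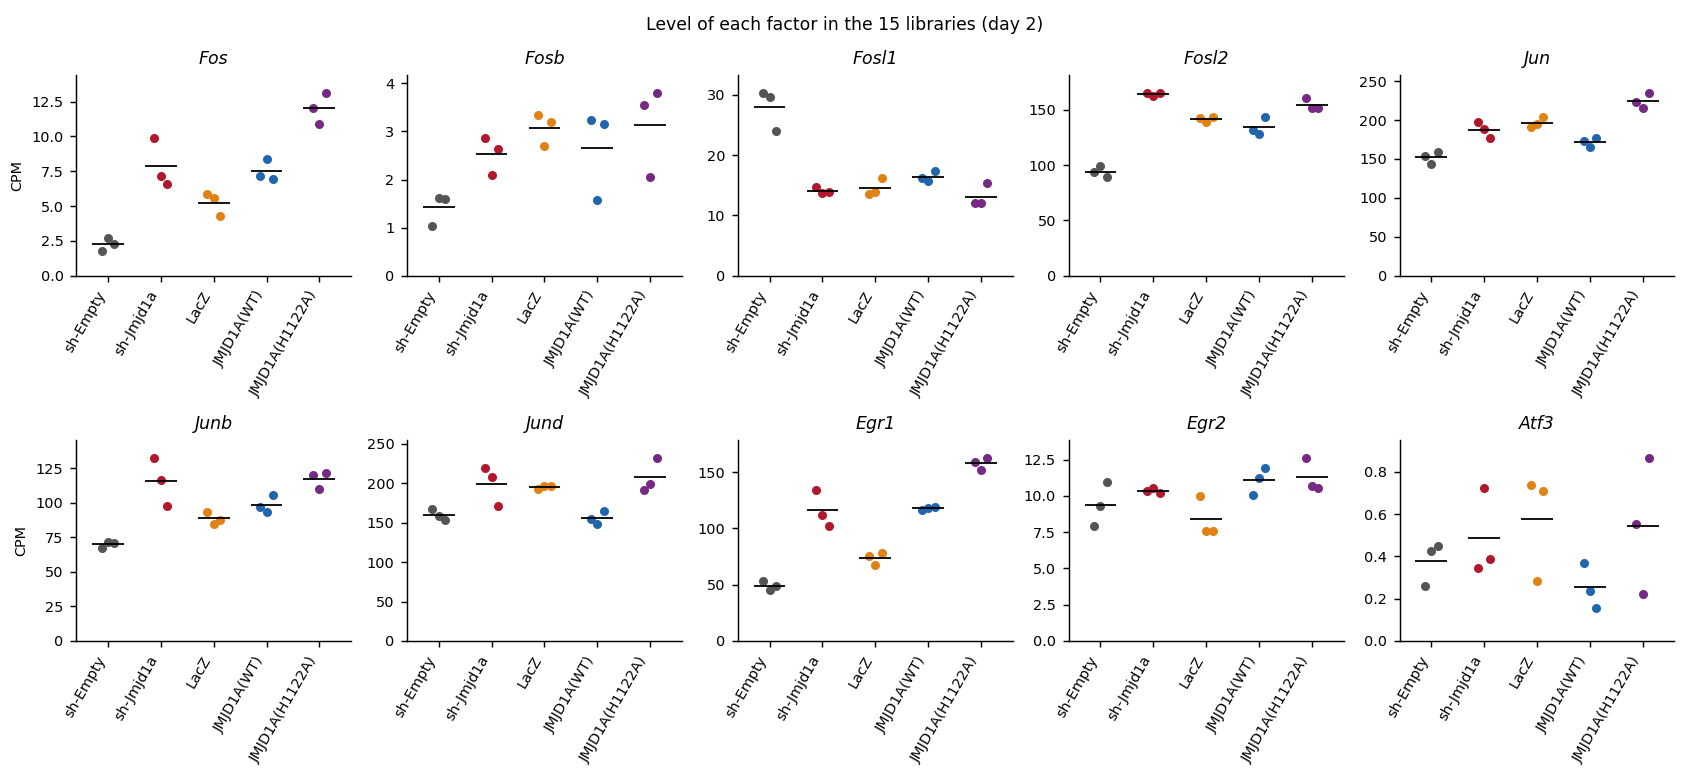
Level of each of the 10 genes in CPM (vertical axis, from 0, a separate scale in each panel) in the 5 groups, with 1 point per library and a bar at the mean of 3. Fos and Egr1 are lowest in sh-Empty and highest in JMJD1A(H1122A), Fosl1 is highest in sh-Empty, and Atf3 stays under 0.87 CPM.

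Most of these factors were higher in JMJD1A-KD cells than in control cells at day 2. In JMJD1A-KD cells against control cells 7 genes rose (Fos, Egr1, Fosl2, Fosb, Junb, Jund and Jun), Fosl1 fell and Egr2 was not called, by edgeR's quasi-likelihood test at an adjusted p under 0.05 over the 12272 genes tested. The call was frequent in this contrast, where 46.2% of all genes tested passed, 22.3% higher and 23.9% lower. The median log2FC of the 9 fitted genes was 0.71, against 0.00 for all genes (the median of their absolute values was 0.22). Beyond 2-fold lay 2 of the 9, Fos and Egr1, and 5.46% of all genes. The groups did not overlap for 8 of the 9, against 53.2% of all genes, and for 7 of them the knockdown libraries were the higher ones, against 26.8%.

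Fos, the founding FOS partner of AP-1, moved most. It was at 1.74, 2.72 and 2.30 CPM in the control libraries and at 9.88, 7.15 and 6.57 CPM in the JMJD1A-KD libraries, from 20 to 36 and 85 to 114 counts. Every knockdown library was above every control library, and the rise was 3.41-fold (log2FC 1.77 ± 0.23 SE, adjusted p = 2.17e-07). Leaving out each library in turn kept the log2FC between 1.58 and 1.91.

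Egr1, the zinc finger factor, rose 2.34-fold. Its control libraries held 53.0, 45.7 and 49.0 CPM and its JMJD1A-KD libraries 135, 112 and 103 CPM, with no overlap (log2FC 1.23 ± 0.09, adjusted p = 1.03e-07). Egr2, by contrast, was at 7.91, 9.27 and 10.9 CPM in control cells and at 10.3, 10.5 and 10.2 CPM in JMJD1A-KD cells, which lay within the control range. Its log2FC was 0.11 ± 0.14 (adjusted p = 0.564), and whether the 2 EGR genes differed in response was not tested.

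Among the JUN genes, Junb, which encodes a JUN protein known to be a weaker activator than JUN itself, rose from 67.2, 71.6 and 70.9 CPM to 132, 116 and 97.7 CPM (log2FC 0.71 ± 0.09, adjusted p = 4.51e-05). Jun was at 154, 144 and 159 CPM in control cells and at 198, 189 and 176 CPM in JMJD1A-KD cells (log2FC 0.29 ± 0.05, adjusted p = 2.22e-05). Jund, the JUN gene known to be expressed widely in resting cells, went from 167, 158 and 154 CPM to 220, 208 and 172 CPM, with the lowest JMJD1A-KD library only just above the highest control library (log2FC 0.31 ± 0.08, adjusted p = 0.00886). The Jund call was not kept without sh-Jmjd1a replicate 2 (adjusted p = 0.0515). Within the JMJD1A-KD group Fos, Jun, Junb, Jund and Egr1 were each highest in replicate 1 and lowest in replicate 3.

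The remaining FOS genes went in both directions. Fosl2, which encodes FRA2, rose from 93.7, 99.2 and 88.9 CPM to 165, 162 and 165 CPM, a shift far beyond the spread of either group (log2FC 0.80 ± 0.05, adjusted p = 1.36e-13). Fosb rose from 1.04, 1.62 and 1.60 CPM to 2.86, 2.09 and 2.63 CPM on 12 to 34 counts a library (log2FC 0.79 ± 0.31, adjusted p = 0.0365), a call that was lost without sh-Empty replicate 1 (adjusted p = 0.135) or 3 (0.0607) and without sh-Jmjd1a replicate 1 (0.118) or 3 (0.0728).

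Fosl1, which encodes FRA1, was the one factor that fell. It was at 30.3, 29.7 and 24.0 CPM in control cells and at 14.6, 13.7 and 13.8 CPM in JMJD1A-KD cells, and its level was 0.503 of the control (log2FC -0.99 ± 0.11, adjusted p = 1.11e-08). In the mm9 annotation 1162 of its 1707 exonic bases also lie in exons of Ccdc85b on the opposite strand, and the strand setting of the counting is not given in the sources used here, so reads from the 2 genes cannot be told apart. Ccdc85b also fell, from 99.97 to 72.6 CPM (log2FC -0.48 ± 0.10, adjusted p = 0.00265). Smaller opposite-strand overlaps touch Jund (543 bases, Gm11175), Jun (232 bases, BC042782) and Egr1 (8 bases, Gm17507). Atf3, a stress-induced bZIP factor that pairs with JUN, had 3, 5 and 7 counts in control and 4, 9 and 5 in JMJD1A-KD libraries, and a difference was not detectable at this depth.

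The differentiation markers moved with the same contrast. All 8 adipocyte markers fell in JMJD1A-KD cells, with a summed level of 5126 to 5207 CPM in control and 2633 to 2771 CPM in JMJD1A-KD libraries. The 8 preadipocyte and fibroblast markers summed to 7528 to 7643 and 12784 to 13492 CPM, with 4 of 7 fitted higher and 2 lower (22.3% and 23.9% of all genes). The higher ones were Col1a1 (log2FC 1.42), Thy1 (0.96), Col3a1 (0.86) and Pdgfrb (0.32), and the lower ones Dlk1 (-0.76) and Ly6a (-0.41). Their part in the factors' differences was not tested, and in such bulk libraries fewer cells of a type and less RNA per cell cannot be told apart.

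**Figure D2:**
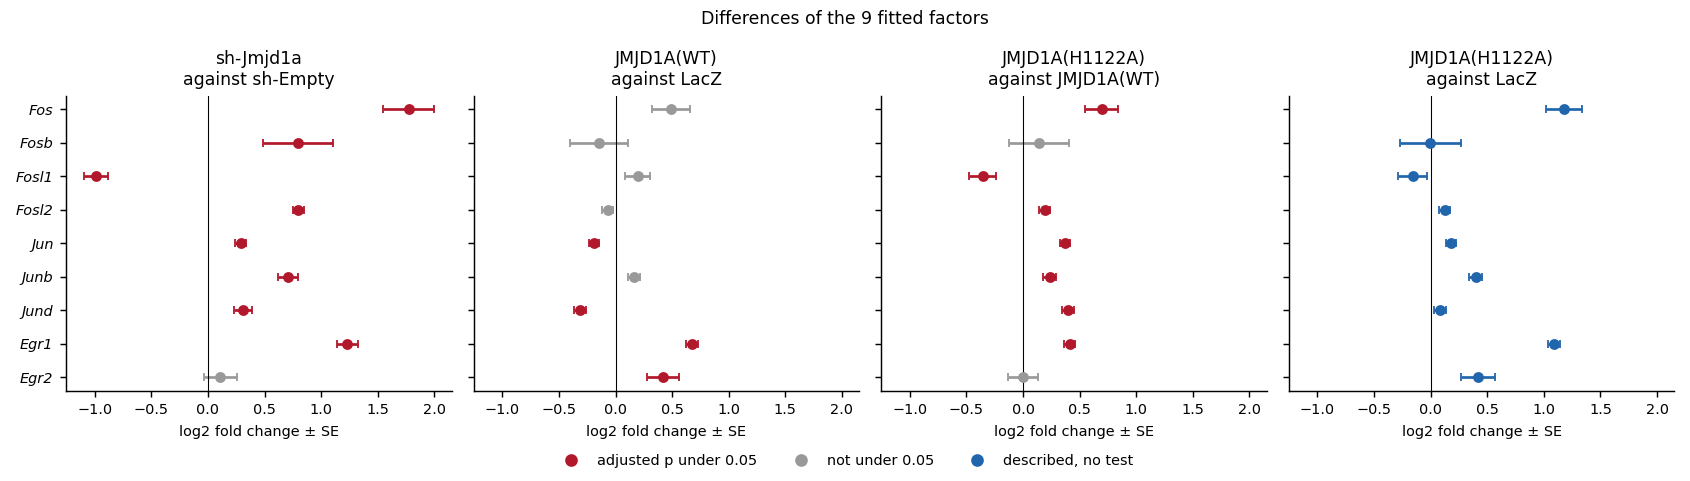
The log2FC ± SE of the 9 fitted genes (horizontal axis, 1 row per gene) in the 4 comparisons, in red where the adjusted p was under 0.05, in grey where it was not and in blue where no test is given. Fos reaches 1.77 on knockdown and Fosl1 -0.99, while the differences with JMJD1A(WT) against LacZ lie between -0.32 and 0.68.

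The next comparison asked what changed when wild-type JMJD1A was put back into JMJD1A-KD cells. Against LacZ, Egr1 and Egr2 rose with JMJD1A(WT) and Jun and Jund fell, while Fos, Fosb, Fosl1, Fosl2 and Junb did not pass the test. Called genes were 9.5% of the 12557 tested here, 4.98% higher and 4.52% lower. The median log2FC of the 9 fitted genes was 0.16, and no gene of the 9 reached 2-fold, as did 1.71% of all genes. The libraries of 5 of the 9 did not overlap, against 22.9% of all genes, and 3 of them were higher with JMJD1A(WT), against 11.5%.

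Egr1 was at 75.7, 67.8 and 78.1 CPM with LacZ and at 117, 118 and 119 CPM with JMJD1A(WT). The 3 wild-type libraries were tightly grouped and all above the LacZ libraries, a rise of 1.60-fold (log2FC 0.68 ± 0.05, adjusted p = 9.35e-14). Egr2 was at 9.97, 7.60 and 7.60 CPM with LacZ and 10.0, 11.2 and 11.95 CPM with JMJD1A(WT), where the highest LacZ library nearly touched the lowest wild-type library (log2FC 0.42 ± 0.14, adjusted p = 0.0460). This call was lost without JMJD1A(WT) replicate 2 or 3 (adjusted p = 0.0705 and 0.284), without LacZ replicate 2 or 3 (0.189 and 0.205) and without JMJD1A(H1122A) replicate 1 or 2 (0.0503 and 0.0540), and DESeq2 gave 0.101.

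Jund fell with JMJD1A(WT), from 193, 196 and 197 CPM to 154, 149 and 165 CPM, without overlap (log2FC -0.32 ± 0.05, adjusted p = 3.54e-05). Jun fell less, from 191, 195 and 204 CPM to 173, 166 and 177 CPM (log2FC -0.19 ± 0.04, adjusted p = 0.00233). Junb was at 93.4, 84.8 and 87.7 CPM with LacZ and 96.7, 93.3 and 106 CPM with JMJD1A(WT), where the groups touched (log2FC 0.16 ± 0.06, adjusted p = 0.0533), and it passed without JMJD1A(WT) replicate 2 (0.0179) or LacZ replicate 1 (0.0236). Without JMJD1A(WT) replicate 3 its log2FC was 0.10 (adjusted p = 0.453), and without LacZ replicate 2 or 3 the adjusted p was 0.233 or 0.163.

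Fos was at 5.89, 5.61 and 4.26 CPM with LacZ and 7.16, 8.41 and 6.97 CPM with JMJD1A(WT). Its groups did not overlap and it was not called (log2FC 0.49 ± 0.17, adjusted p = 0.0573), and without single libraries the adjusted p lay between 0.0502 and 0.304. The Fos increase of the mutant over LacZ was known in advance and rests on these LacZ libraries. The Fos value here is therefore not a separate observation of them. Fosl1 was at 13.5, 13.8 and 16.2 CPM with LacZ and 16.2, 15.7 and 17.3 CPM with JMJD1A(WT), well under the 24.0 CPM of the lowest control library (log2FC 0.20 ± 0.11, adjusted p = 0.342). Fosl2 (142, 138 and 144 against 132, 128 and 143 CPM) and Fosb (3.35, 2.70 and 3.20 against 3.25, 1.57 and 3.15 CPM) overlapped between the groups, with adjusted p of 0.474 and 0.818. Atf3 had 11, 4 and 10 counts with LacZ and 5, 3 and 4 with JMJD1A(WT).

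All 8 adipocyte markers rose in this contrast, with sums of 3338 to 3423 CPM with LacZ and 3819 to 4186 CPM with JMJD1A(WT). Of 8 preadipocyte and fibroblast markers 4 rose and none was lower, against 4.98% and 4.52% of all genes. The 4 were Ly6a (log2FC 1.24), Dlk1 (0.43), Pdgfrb (0.18) and Col3a1 (0.12). The part of either list in the factors' differences was not tested.

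The mutant was next set against the wild type, from which it differs at the iron site. This comparison shares the JMJD1A(WT) libraries with the comparison above. Kdm3a was also higher with the mutant (2212 ± 90.1 against 1696 ± 69.0 CPM), so the iron site and the transcript level cannot be told apart. Fos, Egr1, Jun, Jund, Junb and Fosl2 were higher with the mutant, Fosl1 was lower, and Fosb and Egr2 were not called. Of all 12557 genes tested, 23.8% were called, 12.1% higher and 11.7% lower. The median log2FC of the 9 fitted genes was 0.23, and no gene of the 9 reached 2-fold, as did 2.59% of all genes. The groups did not overlap for 7 of the 9, against 37% of all genes, and for 6 of them the mutant libraries were the higher ones, against 19%.

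Fos was at 12.1, 10.9 and 13.1 CPM with JMJD1A(H1122A), on 149 to 153 counts, and at 6.97 to 8.41 CPM with JMJD1A(WT). Every mutant library lay above every other library of the series (log2FC 0.69 ± 0.14 against JMJD1A(WT), adjusted p = 0.00021). Egr1 was likewise highest with the mutant, at 159, 152 and 162 CPM against 117 to 119 CPM (log2FC 0.41 ± 0.05, adjusted p = 4.55e-09). Since the Fos increase over LacZ was known in advance and rests on the same mutant libraries, the Fos value here is not a separate observation of them.

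Jun was at 223, 215 and 235 CPM with JMJD1A(H1122A), above its other 12 libraries (log2FC 0.37 ± 0.04 against JMJD1A(WT), adjusted p = 4.42e-09). Jund was at 192, 200 and 232 CPM with the mutant, spread over a wider range but above all wild-type libraries (log2FC 0.40 ± 0.05, adjusted p = 2.57e-07). Junb was at 120.1, 110.0 and 122 CPM (log2FC 0.23 ± 0.05, adjusted p = 0.000947). Fosl2 was at 161, 151 and 152 CPM (log2FC 0.19 ± 0.05, adjusted p = 0.00224). The Fosl2, Jun, Junb and Jund differences were each under 1.32-fold.

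Fosl1 was at 11.97, 12.03 and 15.3 CPM with the mutant, just below the lowest wild-type library (log2FC -0.36 ± 0.12, adjusted p = 0.0222). It was not called without JMJD1A(H1122A) replicate 1 (adjusted p = 0.123) or 2 (0.128) or without JMJD1A(WT) replicate 3 (0.136), and the overlapping Ccdc85b was also lower (log2FC -0.18 ± 0.07, adjusted p = 0.038). Egr2 stood at 12.6, 10.7 and 10.5 CPM, the same level as with the wild type within the spread (log2FC 0.00 ± 0.13). Fosb was at 3.55, 2.05 and 3.80 CPM (log2FC 0.14 ± 0.26, adjusted p = 0.755), and Atf3 had 7, 3 and 10 counts. All 8 adipocyte markers were lower with the mutant, with a sum of 2599 to 2698 CPM. The preadipocyte and fibroblast markers were 2 higher and 3 lower of 8 (12.1% and 11.7% of all genes), with a sum of 15197 to 15986 CPM against 16683 to 17342 CPM with the wild type. The part of either list in the factors' differences was not tested.

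Against LacZ, with which the list was drawn up, JMJD1A(H1122A) gave a log2FC of 1.18 for Fos and 1.09 for Egr1. These 2 of the 9 were beyond 2-fold, as were 1.11% of all genes. Egr2 followed at 0.42, Junb at 0.40, Jun at 0.18 and Fosl2 at 0.12, and for these 6 genes the libraries did not overlap, as for 25.3% of all genes (13.5% with the mutant higher). Jund (0.08), Fosb (0.00) and Fosl1 (-0.16) overlapped between the groups. Egr1 lay between 1.03 and 1.13 without single libraries. The values of Jund, Fosb and Fosl1 also shifted, for Fosb and Fosl1 by less than their SE (0.27 and 0.12). Jund was at 0.00 without JMJD1A(H1122A) replicate 3 and 0.14 without its replicate 1. Fosl1 was at -0.28 without JMJD1A(H1122A) replicate 3, at -0.10 without its replicate 1 or 2 and at -0.08 without LacZ replicate 3. Fosb ranged from -0.16 without JMJD1A(H1122A) replicate 3 to 0.24 without its replicate 2. In this contrast too all 8 adipocyte markers were lower with the mutant (median log2FC -1.09), and the median log2FC of the 8 preadipocyte and fibroblast markers was -0.007. Their part in the factors' differences was not tested.

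The levels of the 5 groups can also be set in order, as a description over libraries scaled together. The knockdown and rescue sets carry different viral constructs, so set and construct cannot be told apart. Fos and Egr1 had the same ends of the order, with sh-Empty lowest (2.25 and 49.2 CPM on average), LacZ next (5.25 and 73.9), JMJD1A(WT) and sh-Jmjd1a overlapping in the middle (7.51 and 7.87 for Fos, 118 and 116 for Egr1) and JMJD1A(H1122A) highest (12.04 and 158). LacZ, itself a knockdown group, thus had less Fos, Egr1, Junb, Fosl2 and Egr2 than JMJD1A-KD cells with no second virus, without overlap of the libraries. Its Jun, Jund, Fosl1, Fosb and Atf3 overlapped with those of JMJD1A-KD cells. The share of all genes that did not overlap was not worked out for this pair, so the split is a description only. Junb was lowest in sh-Empty (69.9 CPM) and the other 4 groups overlapped with their neighbours from LacZ (88.6) to JMJD1A(H1122A) (117). Fosl2 rose from sh-Empty (93.9) through JMJD1A(WT) and LacZ (134 and 141, overlapping) and JMJD1A(H1122A) (155) to sh-Jmjd1a (164).

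Jun and Jund were ordered otherwise. Jund was lowest with JMJD1A(WT) (156 CPM) and in sh-Empty (159), whose libraries overlapped, and LacZ, sh-Jmjd1a and JMJD1A(H1122A) overlapped above them (195, 200 and 208). Jun was lowest in sh-Empty (152), then overlapped through JMJD1A(WT) (172), sh-Jmjd1a (188) and LacZ (197), and was highest with JMJD1A(H1122A) (224). Fosl1 stood apart in sh-Empty (28.0 CPM) from the 4 knockdown groups (13.1 to 16.4). Of these, JMJD1A(WT) lay above sh-Jmjd1a and JMJD1A(H1122A) without overlap, and each neighbouring pair in the order overlapped. Fosb was lowest in sh-Empty and overlapped among the rest, and neither Egr2 nor Atf3 had neighbouring groups that stood apart.

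Scaled to transcript length (RPKM, CPM per kb of merged exons), the JUN genes were the more abundant, with a summed level of 142 ± 2.04 RPKM in sh-Empty against 33.8 ± 2.75 RPKM for the FOS genes, a ratio of 4.22 ± 0.39. The ratio was 4.24 to 5.07 in JMJD1A-KD libraries, which overlapped with the control range of 3.89 to 4.65. In the rescue set it was 4.43 to 4.49 with JMJD1A(WT), below the 4.92 to 5.05 with LacZ and the 5.005 to 5.34 with JMJD1A(H1122A). Inside the FOS pool the make-up was different. In sh-Empty Fosl1 made up 48.5% ± 2.59 and Fosl2 47.6% ± 1.79 of the summed FOS RPKM, and in sh-Jmjd1a Fosl1 made up 20.5% ± 0.11 and Fosl2 69.6% ± 1.81, with no overlap for either. Fos was a small part throughout, at 2.85% ± 0.62 in sh-Empty, 8.27% ± 1.60 in sh-Jmjd1a, 6.27% ± 1.16 with LacZ, 8.80% ± 1.28 with JMJD1A(WT) and 12.8% ± 0.64 with JMJD1A(H1122A). In the 3 rescue groups Fosl2 was the main FOS transcript, at 62.9% to 67.6% on average, and Fosl1 made up 19.1% to 26.4%. The Fosl1 shares carry the overlap with Ccdc85b given above.

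The JUN pool was more even. In sh-Empty Jund made up 39.1%, Jun 33.6% and Junb 27.3% of the summed JUN RPKM, and in sh-Jmjd1a 36.1%, 30.8% and 33.2%. With JMJD1A(WT) the 3 genes were nearly equal, at 33.3% for Jund, 33.2% for Jun and 33.5% for Junb, against 38.0%, 34.5% and 27.5% with LacZ. The Junb share was higher with JMJD1A(WT) than with LacZ in every library (33.2% to 34.1% against 26.6% to 28.9%). With 3 libraries a group these shares are descriptions, since an exact permutation test cannot go below 0.10.

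**Figure D3:**
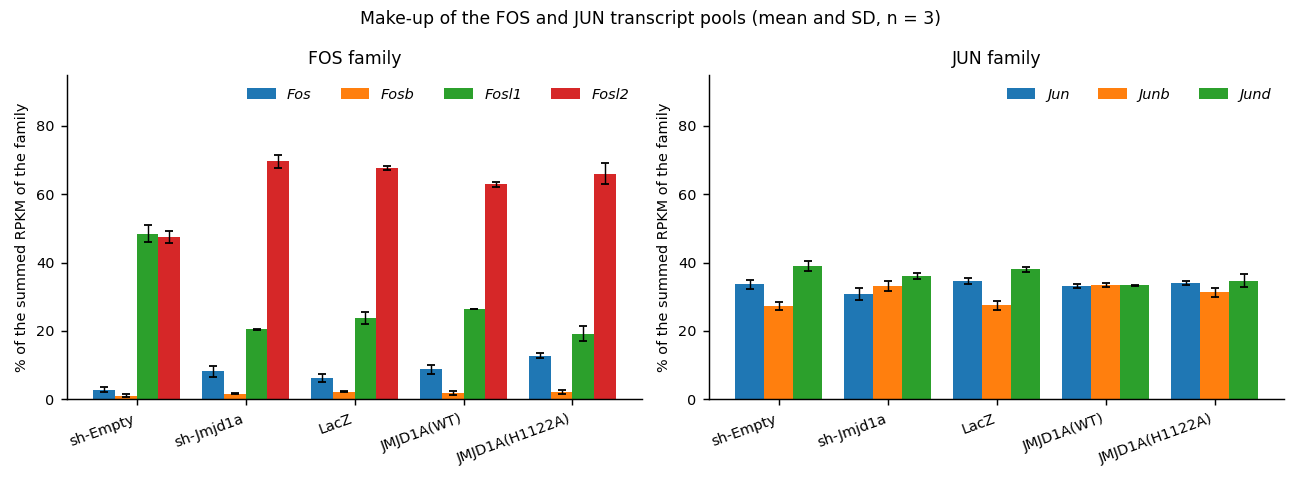
Share of each gene in the summed RPKM of the FOS genes (left) and the JUN genes (right), in percent on the vertical axis from 0, with bars for the mean and whiskers for the SD of 3 libraries in each of the 5 groups. Fosl1 and Fosl2 are near equal in sh-Empty (48.5% and 47.6%) and apart in all knockdown groups, while the JUN genes stay between 27.3% and 39.1%.

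Among the other genes of the pathway, 13 of 23 fitted immediate early genes outside the list rose on knockdown and 2 fell (22.3% and 23.9% of all genes did), with a median log2FC of 0.36. The largest rises were those of Ptgs2, which encodes the inducible cyclooxygenase (2.45 ± 0.56 to 11.9 ± 1.22 CPM, log2FC 2.31 ± 0.19, adjusted p = 5.43e-11), and of the antiproliferative gene Btg2 (log2FC 1.77, adjusted p = 2.03e-08). Myc, the growth-promoting factor, fell from 129 ± 8.72 to 86.2 ± 0.78 CPM (log2FC -0.60, adjusted p = 3.6e-10), and Mcl1, a survival gene, by 0.21 on the log2 scale (adjusted p = 0.000552). With JMJD1A(WT) against LacZ 4 of the 23 were higher and 4 lower (4.98% and 4.52% of all genes). Btg2 (0.41, adjusted p = 0.00423) and the kinase gene Sgk1 (0.22, adjusted p = 0.00172) rose, and Phlda1 (-0.40, adjusted p = 0.000238) and the zinc finger gene Klf2 (-0.48, adjusted p = 0.036) fell. With JMJD1A(H1122A) against JMJD1A(WT) 9 were higher and 2 lower (12.1% and 11.7% of all genes). The log2FC was 0.73 for Phlda1 (adjusted p = 6.92e-10), 0.57 for the matricellular gene Ccn1 (3.07e-12), -0.32 for Ier5 (0.00866) and -0.30 for Myc (0.00424).

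The known regulators of these promoters were taken next. Of 6 fitted SRF and TCF genes 4 rose on knockdown and none fell (22.3% and 23.9% of all genes), with Elk3, a ternary complex factor, at a log2FC of 0.64 (adjusted p = 1.03e-07) and Elk4 at 0.35 (0.00561), beside the SRF coactivator genes Mrtfa at 0.34 and Mrtfb at 0.20. None of the 6 was called with JMJD1A(WT) against LacZ, and Mrtfa was higher (log2FC 0.30, adjusted p = 0.000316) and Elk4 lower (-0.31, adjusted p = 0.00781) with the mutant against the wild type. Of 8 CREB family genes 2 rose on knockdown, a share near the 22.3% of all genes, namely Creb3l1, which encodes a membrane-bound bZIP factor (18.8 ± 0.50 to 50.4 ± 3.87 CPM, log2FC 1.41, adjusted p = 3.98e-14), and Creb1 (log2FC 0.29, adjusted p = 0.000894), while none changed with JMJD1A(WT) and only the coactivator gene Crtc1 with the mutant (log2FC 0.16, adjusted p = 0.0373). Of 3 fitted EGR co-regulators, the corepressor genes Nab2 rose (log2FC 0.37, adjusted p = 5.83e-07) and Nab1 fell (-0.41, adjusted p = 1.52e-05) on knockdown, and none was called in the rescue set. Of all genes, 22.3% rose and 23.9% fell on knockdown, and 12.1% were higher and 11.7% lower with the mutant against the wild type.

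Of 7 other fitted AP-1 and bZIP partners 1 rose and 2 fell on knockdown, near the shares of all genes (22.3% and 23.9%). Jdp2, which encodes a JUN-dimerizing repressor, rose (52.1 ± 3.89 to 78.9 ± 3.29 CPM, log2FC 0.59, adjusted p = 1.34e-08). Mafg (-0.35, adjusted p = 5.94e-05) and Maf (-0.30, adjusted p = 4.3e-06) fell. Jdp2 was the one gene of this list called in the rescue set, at 77.4 CPM with LacZ, 63.2 with JMJD1A(WT) (log2FC -0.28, adjusted p = 0.000454) and 92.2 with JMJD1A(H1122A) (log2FC 0.53 against JMJD1A(WT), adjusted p = 5.18e-10).

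Of 15 feedback inhibitors of MAP kinase signalling 4 were higher and 4 lower on knockdown, near the shares of all genes (22.3% and 23.9%). Dusp14 (log2FC 0.59, adjusted p = 0.000133) and Dusp6 (0.44, adjusted p = 5.08e-05), both dual-specificity phosphatase genes, rose, as did Dusp16 (0.28) and Spred2 (0.24) less. Spry4, which encodes a Sprouty inhibitor of receptor signalling, fell from 73.1 ± 1.77 to 28.5 ± 2.04 CPM (log2FC -1.37, adjusted p = 1.56e-15), and the phosphatase gene Dusp4 fell from 45.1 to 20.6 CPM (log2FC -1.14, adjusted p = 2.57e-11), beside Dusp2 (-0.97) and Spry1 (-0.48). With JMJD1A(WT) against LacZ 4 were higher and none lower (4.98% and 4.52% of all genes), among them Spry4 (41.1 to 54.2 CPM, log2FC 0.39, adjusted p = 3.17e-05) and Dusp10 (0.39, adjusted p = 0.0315), beside Dusp2 (0.96) and Errfi1 (0.27). With the mutant against the wild type 3 were higher and 5 lower (12.1% and 11.7% of all genes). Spry4 was at 24.8 CPM there (log2FC -1.13, adjusted p = 3.04e-16) and Dusp4 at 15.1 (log2FC -0.54, adjusted p = 6.25e-05), and Dusp14 and Dusp6 were each 0.45 higher (adjusted p = 0.000848 and 5.16e-06). The others called there were Dusp16 (0.38), Dusp2 (-1.67), Dusp7 (-0.29) and Errfi1 (-0.12).

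Genes known as AP-1 targets rose on knockdown in 12 of 17 cases and fell in 1, the gelatinase gene Mmp9 (log2FC -2.87, adjusted p = 2.38e-07), against 22.3% and 23.9% of all genes, with a median log2FC of 0.80. The EGF family ligand gene Ereg went from 4.78 ± 0.87 to 17.2 ± 2.09 CPM (log2FC 1.85, adjusted p = 5.05e-11) and the protease inhibitor gene Timp1 from 27.8 ± 3.65 to 71.2 ± 4.71 CPM (log2FC 1.35, adjusted p = 4.18e-14). In the rescue set the medians of this list were -0.02 for JMJD1A(WT) against LacZ (2 higher and 3 lower, against 4.98% and 4.52% of all genes) and 0.02 for JMJD1A(H1122A) against JMJD1A(WT) (4 higher and 4 lower, against 12.1% and 11.7%). The secreted matrix gene Spp1 was at 207 CPM with LacZ, 369 with the wild type and 130 with the mutant (log2FC 0.83 and -1.51, adjusted p = 8.01e-21 and 5.73e-30). The hyaluronan receptor gene Cd44 was at 363, 279 and 376 CPM (log2FC -0.38 and 0.42, adjusted p = 4.27e-10 and 5.68e-12), and Lox, a collagen-crosslinking enzyme gene, at 663, 576 and 949 CPM (log2FC -0.20 and 0.71, adjusted p = 3.02e-05 and 2.61e-21). Hmga2, a chromatin protein gene, was lower with the mutant than with the wild type (log2FC -0.35, adjusted p = 4.52e-08). The others called with JMJD1A(WT) against LacZ were Mmp9 (1.5 ± 0.50, adjusted p = 0.0495, just under the threshold) and the intermediate filament gene Vim (-0.14). With the mutant against the wild type they were Mmp3 (0.60), Vim (0.29), Ereg (-0.31) and Hmga1 (-0.21).

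Heat shock and stress genes, which rise when cells are stressed on handling, showed 2 of 14 higher and 5 lower on knockdown, none called with JMJD1A(WT) against LacZ, and 3 higher and 3 lower with the mutant against the wild type. Of all genes, 22.3% were higher and 23.9% lower on knockdown, and 12.1% and 11.7% with the mutant. On knockdown Ddit3, an endoplasmic reticulum stress gene, rose (log2FC 0.88, adjusted p = 3.2e-10), as did Dnajb1 (0.23, adjusted p = 0.00413), while the chaperone genes Hspd1 (-0.69, adjusted p = 2.13e-15) and Hspb1 (-0.67, adjusted p = 0.000216) fell, beside Ddit4 (-0.56), Hspe1 (-0.43) and Hspa8 (-0.24). With the mutant Bag3 (0.25, adjusted p = 0.000181) and Ddit3 (0.24, adjusted p = 0.0163) were higher and Hspd1 (-0.33, adjusted p = 3.47e-10) and Hspe1 (-0.23, adjusted p = 0.000388) lower, beside Hmox1 (0.19) and Ddit4 (-0.18). The part of these genes in the factors' differences was not tested.

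**Figure D4:**
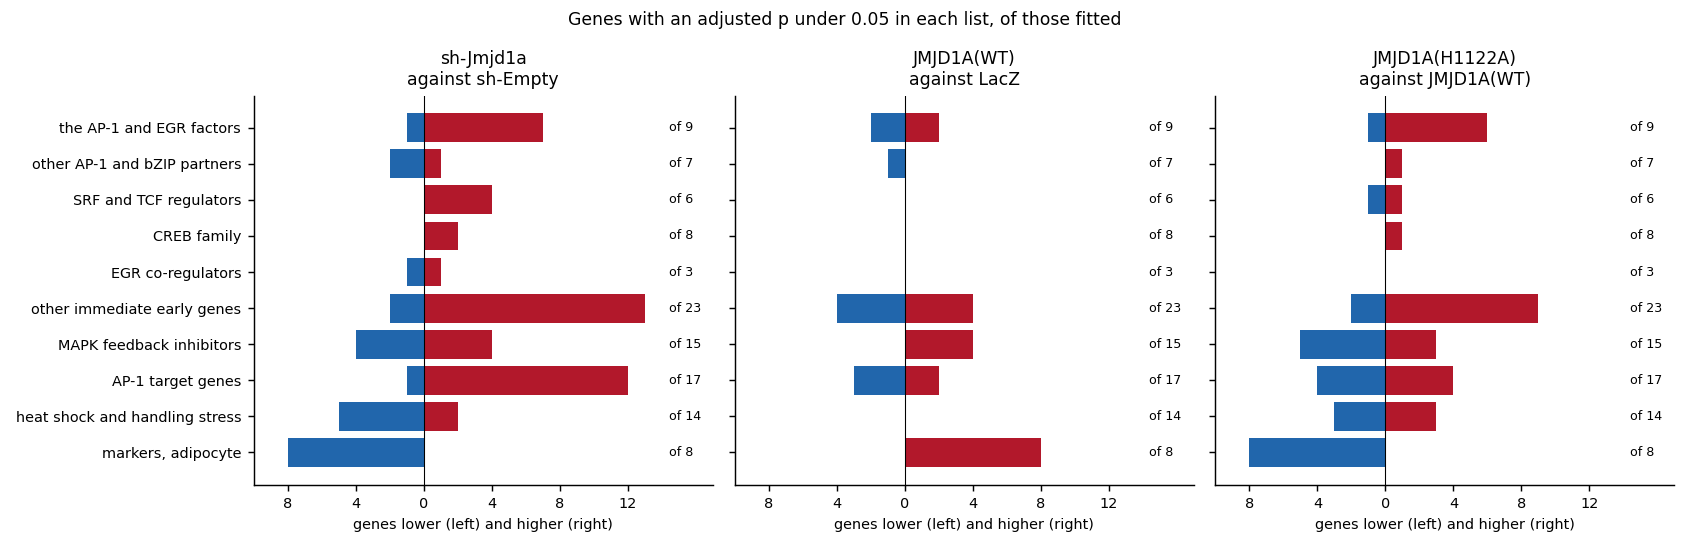
Number of genes called higher (red, to the right of 0) and lower (blue, to the left) in each gene list (rows) for the 3 tested comparisons, with the number fitted at the right of each row. On knockdown 7 of the 9 AP-1 and EGR factors, 13 of 23 other immediate early genes and 12 of 17 AP-1 targets are higher, while all 8 adipocyte markers are lower.

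Over the 9 rescue libraries, the genes whose log2 CPM was most like that of Fos among 10214 genes ranked were Apbb3 (Pearson's r = 0.98), Foxo4 (0.97), Ppox (0.96), Wrap73 (0.95) and Tpp1 (0.95). Within the list, Egr1 came at rank 20 (r = 0.92), Junb at rank 38 (0.90) and Egr2 at rank 450 (0.73). Fosl2 (rank 1739, r = 0.50), Jun (1809, 0.49) and Jund (3584, 0.24) followed far behind, and Fosl1 had the opposite sign (8163, -0.43). The 9 points fall into 3 groups of 3, so these values are a description of a shared order of the groups and carry no p. The list was drawn up with the Fos increase of the mutant over LacZ known, and that increase rests on libraries among these 9. The ranks of the list's genes are therefore not separate support that they follow Fos.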

How the data were processed

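RNA-seq was performed on 15 libraries of 3T3-L1 cells on day 2, 3 in each of 5 groups taken from the labels. The deposited files hold raw counts per Entrez Gene number, which the authors made by trimming with fastp, aligning to mm9 with HISAT2 and counting with featureCounts. The gene annotation and strand setting of the counting are not given in the sources used here; the labels and the methods name different library kits. Reads that fit several genes or opposite-strand exons may therefore be split or shared.

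Symbols matched 24191 of 26301 gene numbers and exon lengths (NCBIM37 annotation) 22663. The 6 libraries of the knockdown set were fitted apart from the 9 of the rescue set in edgeR 4.0.16 (R 4.3.3) with TMM factors, genes kept by filterByExpr at a minimum count of 10, robust quasi-likelihood F tests and Benjamini-Hochberg adjustment over the 12272 or 12557 genes tested, at a threshold of 0.05. The scripts were tested on simulated data. SE is the log2FC divided by the root of F. Printed CPM use TMM factors over all 15 libraries. Replicates of every group differed by more than counting noise (chi-square per degree of freedom 2.06 to 5.22), so all count as separate libraries. Same-numbered libraries did not deviate together, so no pairing was used. Counting error alone limits Atf3, Fosb and Fos most.

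The genes and all lists (other AP-1 and bZIP partners, SRF and TCF regulators, CREB family, EGR co-regulators, other immediate early genes, MAPK feedback inhibitors, AP-1 targets, heat shock genes and cell type markers) were chosen with earlier results of these data known. Beside the 10 factors and Kdm3a, named genes are at most the 2 that rose and the 2 that fell most in each list and comparison, among those called, at 5 CPM or more and without overlap, and the 5 most like Fos. Further genes of counts of 5 or fewer, Ccdc85b, the other overlapping genes and Des were named after their values or positions were seen. DESeq2 1.42.0, other scaling, filters, sample sets, depth, thresholds, a replicate block and leaving out each library were tried as alternatives.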

Additional observations from a re-analysis of the deposited data

How the results depend on the processing

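The counts of called factors (8 on knockdown, 4 for JMJD1A(WT) against LacZ, 7 for JMJD1A(H1122A) against JMJD1A(WT)) and the 2 factors beyond 2-fold in JMJD1A(H1122A) against LacZ stayed within 1.5 times under 63 of 66 alternatives. The other 3 added a log2FC of at least 1 in size to the test, which left 2, 0 and 0 factors. Without single libraries the counts were 7 to 8, 3 to 5 and 6 to 7, and always 2 for JMJD1A(H1122A) against LacZ. Of 540 single log2FC under alternatives, 499 kept direction and call, 20 lost a call, 6 gained one, 12 turned and 3 moved by more than the SE of the main log2FC.

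On knockdown Fosb was lost with DESeq2 (adjusted p = 0.0720) and Jund with no filter on low counts (0.0521). For JMJD1A(WT) against LacZ, Egr2 was lost with DESeq2 (0.101), the legacy quasi-likelihood method (0.0558), libraries thinned to the smallest total (0.0867) and only the 2 groups compared (0.0593), Fos was gained with the legacy method (0.0424) and Junb with no filter (0.0477). Of the 12 that turned, 4 were Fosb in JMJD1A(H1122A) against LacZ, which has no test (0.0016 with all 15 libraries in one fit, 0.24 without JMJD1A(H1122A) replicate 2, 0.062 and 0.023 without LacZ replicate 1 and 3), and the other 8 were uncalled. Fosb turned to 0.048 for JMJD1A(WT) against LacZ without JMJD1A(WT) replicate 2, and for JMJD1A(H1122A) against JMJD1A(WT) to -0.010 without JMJD1A(H1122A) replicate 3 and -0.051 without JMJD1A(WT) replicate 2. Egr2 in the latter comparison turned to -0.0017 on thinning, -0.086 without JMJD1A(H1122A) replicate 1, -0.054 without JMJD1A(WT) replicate 1 and -0.0013 without JMJD1A(WT) replicate 2. Without single libraries Fosb ranged from -0.34 to 0.05 for JMJD1A(WT) against LacZ and from -0.05 to 0.39 for JMJD1A(H1122A) against JMJD1A(WT), where Egr2 ranged from -0.086 to 0.087. The cause was not tested.

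Same-numbered libraries correlated at -0.0436 to 0.0543 over 12 pairs, so the numbers do not pair them. With a replicate block 8, 6 and 7 factors were called in the 3 comparisons. For JMJD1A(WT) against LacZ the block added Fos (adjusted p = 0.0480) and Junb (0.0295), and it turned Egr2 in JMJD1A(H1122A) against JMJD1A(WT) to -0.00078. Depth limits Atf3 (3 to 11 counts) and Fosb (12 to 81 counts).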
